A study of Mus musculus with 20 samples.

Results

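The genes described here are 330 mouse genes with a locus shorter than 10 kb that carried both H3K27me3 and H3K4me3 in wild-type ES cells. They were chosen from 17711 genes that had a value in both ChIP-seq tables and a single locus in the RNA table, by an H3K27me3 value of 3 or more and an H3K4me3 value of 5 or more in the wild-type ES libraries. Of the 5793 genes under the length limit, another 1992 passed only the H3K4me3 threshold, 487 passed only the H3K27me3 threshold and 2984 passed neither. Since the wild-type ES values chose the genes, each contrast of a mark with wild-type ES cells is given as a description and nothing is read from it.

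The cells were TL1 mouse embryonic stem (ES) cells, grown with serum and the cytokine LIF, and embryoid bodies (EBs), the aggregates in which ES cells differentiate, grown in the same medium with LIF left out. Each stage was sampled as wild type and as knockout, that is, with p150 depleted by CRISPR/Cas9. p150 is the large subunit of CAF-1, the chaperone that deposits histones H3 and H4 on newly copied DNA, and Chaf1a encodes it. RNA-seq had 2 libraries in each of the 4 groups and each histone mark had 1 library per group. ChIP values are the authors' signal per gene, which they call RPKM on promoters without giving the window. The titles of the EB ChIP libraries carry a 7 before EB whose meaning is not stated. The labels do not otherwise give an EB day, and they do not give the number of clones or whether replicate libraries came from separate cultures, so a p-value reflects only how far these libraries scatter, and that scatter may be technical.

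H3K27me3 is written by Polycomb repressive complex 2 and marks genes held silent, while H3K4me3 marks active or inducible promoters. In ES cells many regulators of development carry both marks at the same promoter, a state called bivalent, and stay at low RNA levels. On differentiation such genes are known to resolve: those of the lineage being formed lose H3K27me3 and are transcribed, and those of other lineages keep or gain it. In bulk material a gene with both marks may also be marked differently in different cells of the sample.

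Some facts of the libraries bear on every value below. The H3K27me3 library of wild-type EBs stands apart from the other ChIP libraries: its values come in steps of 0.04 where the others come in steps of 0.0267, and its values add up to fewer steps than those of any other H3K27me3 library. It cannot be left out of a comparison with wild-type EBs, and contrasts without it are given beside them. Summed FPKM of 12 pluripotency markers was 6357 to 7065 in the ES libraries, 330.8 and 587.3 in wild-type EBs, and 8091 and 5752 in knockout EBs. All 12 of these markers were called higher in knockout than in wild-type EBs. Summed FPKM of 10 cardiac muscle markers was 4845 and 3517 in wild-type EBs but 32.67 and 294.1 in knockout EBs, and 10 blood and endothelial markers summed to 2812 and 742.6 against 75.51 and 103. The knockout EBs therefore held marker RNA levels nearer those of ES cells, and the part of this difference in the values of single genes was not tested. In these bulk samples fewer cells of a type and less RNA per cell cannot be told apart. Chaf1a RNA lay at 42.96 to 49.48 FPKM in the wild-type ES libraries, at 37.95 to 48.06 in the knockout ES libraries, and 31.64 to 35 in the 4 EB libraries, so this RNA does not separate the genotypes.

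To show what kind of promoters these are, the 250 bases before the start site of 9 of the genes are printed below. Zic5 and Egr4 had the largest H3K27me3 deficits in knockout EBs. Cdx2, Eomes and Lhx1 are lineage factors that kept both marks in EBs. Serpinh1 had less H3K27me3 in wild-type EBs than in wild-type ES cells, Inhbb had the largest ratio the other way among the promoters matched, and H2-K1 and Cdkn1a are 2 of the 8 genes called in RNA between knockout and wild-type ES cells, calls that were lost with any 1 library left out. Sequences are from RefSeq on GRCm38.p6, read 5′ to 3′ toward the gene, with CG dinucleotides in capitals. They lie at chr14:122465659-122465908 on the minus strand for Zic5, chr6:85513590-85513839 on the minus strand for Egr4 and chr5:147307250-147307499 on the minus strand for Cdx2. Eomes is at chr9:118477939-118478188 on the plus strand, Lhx1 at chr11:84525535-84525784 on the minus strand and Serpinh1 at chr7:99353240-99353489 on the minus strand. Inhbb is at chr1:119422249-119422498 on the minus strand, H2-K1 at chr17:34000334-34000583 on the minus strand and Cdkn1a at chr17:29090729-29090978 on the plus strand.
Zic5: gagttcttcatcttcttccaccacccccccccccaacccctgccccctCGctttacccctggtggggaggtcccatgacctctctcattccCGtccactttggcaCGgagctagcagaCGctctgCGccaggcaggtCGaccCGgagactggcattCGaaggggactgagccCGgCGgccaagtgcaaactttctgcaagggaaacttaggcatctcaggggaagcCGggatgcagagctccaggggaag
Egr4: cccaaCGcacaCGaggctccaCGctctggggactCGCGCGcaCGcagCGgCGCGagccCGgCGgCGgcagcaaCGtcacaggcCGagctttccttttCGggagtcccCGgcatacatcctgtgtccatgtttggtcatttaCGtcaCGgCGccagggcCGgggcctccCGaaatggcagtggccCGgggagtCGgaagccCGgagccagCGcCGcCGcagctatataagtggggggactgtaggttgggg
Cdx2: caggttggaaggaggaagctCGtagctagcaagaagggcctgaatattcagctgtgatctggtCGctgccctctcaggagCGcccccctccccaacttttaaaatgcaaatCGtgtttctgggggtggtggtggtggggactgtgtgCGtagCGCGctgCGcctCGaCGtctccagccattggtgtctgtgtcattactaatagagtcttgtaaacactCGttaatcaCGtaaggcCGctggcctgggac
Eomes: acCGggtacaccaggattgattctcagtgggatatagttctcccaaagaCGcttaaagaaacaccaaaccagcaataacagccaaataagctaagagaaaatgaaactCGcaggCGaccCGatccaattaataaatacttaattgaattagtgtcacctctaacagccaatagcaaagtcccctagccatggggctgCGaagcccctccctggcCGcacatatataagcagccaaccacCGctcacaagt
Lhx1: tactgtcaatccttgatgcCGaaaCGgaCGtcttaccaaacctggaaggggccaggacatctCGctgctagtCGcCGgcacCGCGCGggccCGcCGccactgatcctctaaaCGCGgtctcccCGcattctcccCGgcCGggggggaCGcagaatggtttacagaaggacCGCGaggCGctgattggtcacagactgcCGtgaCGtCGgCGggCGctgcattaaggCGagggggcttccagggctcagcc
Serpinh1: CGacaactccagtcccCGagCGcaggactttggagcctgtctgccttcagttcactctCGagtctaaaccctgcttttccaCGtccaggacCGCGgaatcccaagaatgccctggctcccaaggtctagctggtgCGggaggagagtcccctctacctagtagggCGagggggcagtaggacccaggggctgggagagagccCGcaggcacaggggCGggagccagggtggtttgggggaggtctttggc
Inhbb: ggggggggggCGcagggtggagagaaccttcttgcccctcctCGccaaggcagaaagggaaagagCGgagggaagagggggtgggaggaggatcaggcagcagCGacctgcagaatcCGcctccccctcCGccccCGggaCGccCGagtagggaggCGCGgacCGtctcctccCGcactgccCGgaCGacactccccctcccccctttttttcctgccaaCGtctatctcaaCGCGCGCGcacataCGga
H2-K1: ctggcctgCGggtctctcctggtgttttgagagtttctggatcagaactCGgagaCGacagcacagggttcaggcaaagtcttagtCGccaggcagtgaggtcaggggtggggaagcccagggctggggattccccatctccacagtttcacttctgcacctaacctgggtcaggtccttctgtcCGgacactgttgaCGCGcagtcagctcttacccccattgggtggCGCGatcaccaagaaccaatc
Cdkn1a: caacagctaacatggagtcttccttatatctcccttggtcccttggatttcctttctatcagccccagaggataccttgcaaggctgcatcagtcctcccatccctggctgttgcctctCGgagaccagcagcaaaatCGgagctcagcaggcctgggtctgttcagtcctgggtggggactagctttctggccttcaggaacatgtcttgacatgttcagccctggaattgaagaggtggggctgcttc

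The number of CG dinucleotides in the printed 250 bases ran from 28 in Egr4, 26 in Lhx1 and 21 in Inhbb, through 13 in Cdx2 and 11 each in Zic5 and Serpinh1, to 9 in H2-K1, 8 in Eomes and 2 in Cdkn1a. The RefSeq table holds 1 start per gene, and the Cdkn1a window belongs to a start at the outer edge of its locus. A window of 300 bases, 250 before to 50 after the start, was matched by symbol for 240 of the 330 genes. Their median was 18 CG per window with quartiles of 10 and 26, against 20 in short genes with only H3K4me3, 9 in short genes with only H3K27me3 and 2 in short genes past neither threshold. A GC content over 50% together with an observed to expected CG ratio over 0.6 was found in 57.1% of the matched windows, in 70.6% of short H3K4me3-only windows and in 31.2% of short H3K27me3-only windows. Over all 13253 windows the share was 50.5% and the median 16 CG. Longer genes past both thresholds gave 66.3% and 21 CG. By CG content the short bivalent genes thus lay between the short genes that passed a single threshold, nearer to those with H3K4me3.

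**Figure D1:**
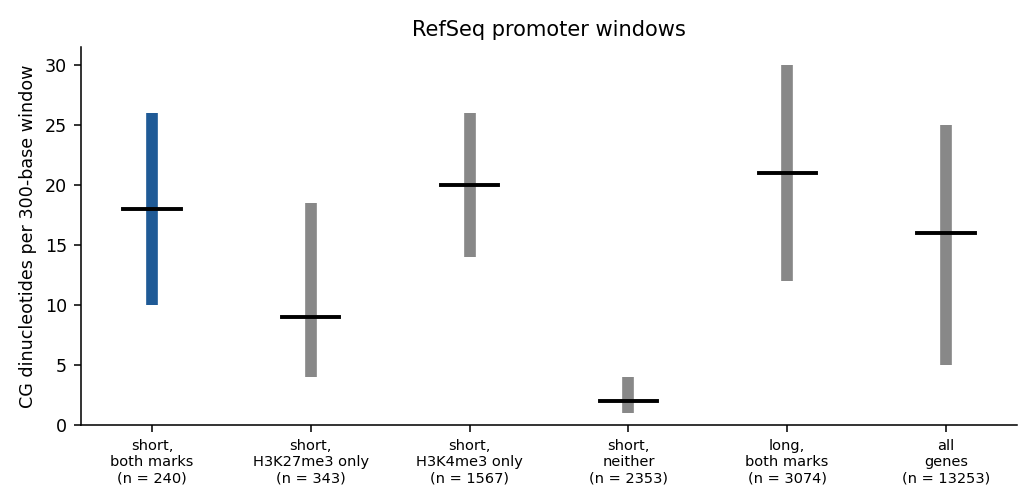
CG dinucleotides per RefSeq promoter window of 300 bases (y axis) for the groups of genes made by the length limit and both thresholds (x axis, number of windows below each). Bars span the quartiles and black lines are medians: the short genes with both marks have a median of 18, those past neither threshold 2.

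Within the 240 matched genes the CG count had almost no rank relation to the marks. Spearman's rho across genes, which are not independent replicates, was 0.00295 with H3K27me3 in wild-type ES cells, 0.0454 with H3K27me3 in wild-type EBs and -0.042 with the knockout to wild-type ratio in EBs. The letters TATAAA stood on either strand in 26 of the 240 windows (10.8%), against 12.8% of all 13253 windows. The letters CCAAT stood on either strand in 95 windows (39.6%), against 39% of all windows. Both shares were close to those of all genes.

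The genes fall into known developmental groups only in part. Of the 330, 98 were in at least 1 of the lists used here, and 232 were in none. These lists hold developmental regulators, signals, neuronal genes, growth brakes, matrix and adhesion genes and imprinted genes. The cell type markers were not counted among them. The largest list was 21 homeobox factors outside the Hox clusters, followed by 13 zinc finger and other fate factors and 13 axon guidance and neuronal genes. Of 38 Hox genes with values, only Hoxc13 met the rule, since 25 short Hox genes had enough H3K27me3 but an H3K4me3 value under 5, 6 were under the H3K27me3 threshold and 6 were 10 kb or longer. Chromosome 11 held 43 of the genes and chromosome 17, with the mouse major histocompatibility complex, 29. Of the 330, 38 had another of them within 20 kb and 4 overlapped one, so their values are not independent of their neighbours'.

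The thresholds cut through a continuous range. Just inside the H3K27me3 limit, Egr4, a zinc finger factor of the early growth response family, had 3.01, and Grasp and Hfe2 had the same value. Just outside it, Mex3b, Stap2 and Syde1 had 2.99. The homeobox factor Lhx3 (H3K27me3 17.3, H3K4me3 4.99) and the keratin Krt8 (6.70 and 4.96) missed the H3K4me3 limit, while Dlx2, a homeobox factor of the forebrain (3.42 and 5.07), met it.

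H3K27me3 at these genes differed in level and spread between the EBs. The median value was 5.72 in wild-type ES cells, 3.98 in knockout ES cells, 16.6 in wild-type EBs and 7.32 in knockout EBs, while the median of all 17711 genes stayed between 1.64 and 1.87. Values of 20 or more were reached by 3 of the 330 genes in wild-type ES cells, 1 in knockout ES cells, 144 in wild-type EBs and 14 in knockout EBs. At the other end, 30 genes were under 3 in wild-type EBs and 18 in knockout EBs. The quartiles were 6.68 and 29.5 in wild-type EBs but 4.94 and 11.6 in knockout EBs: the genes were spread over a narrower range of H3K27me3 in the knockout, with fewer very high and fewer very low values.

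**Figure D2:**
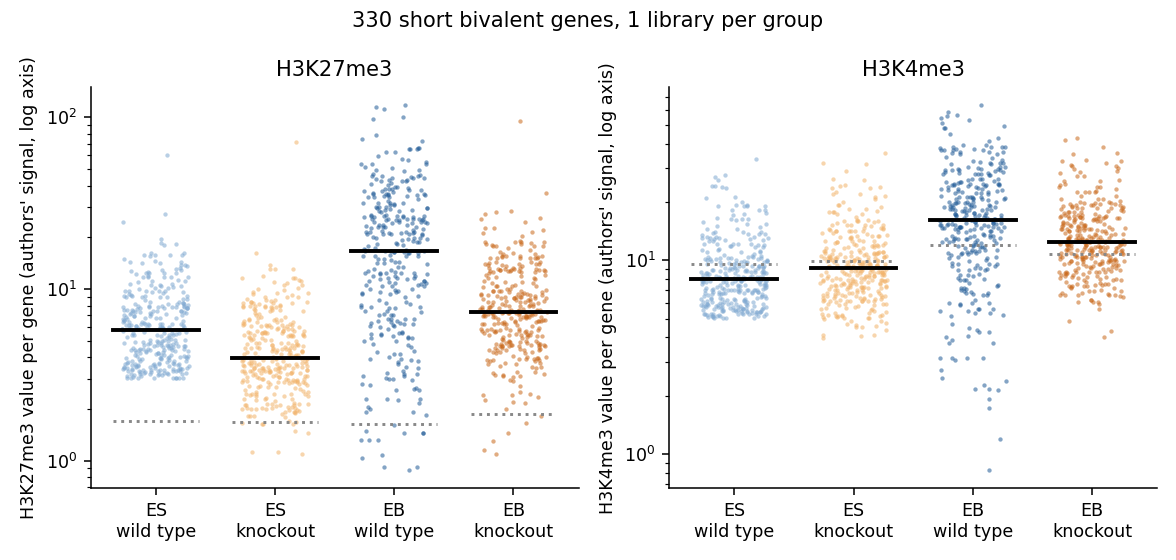
H3K27me3 (left) and H3K4me3 (right) value of each of the 330 genes in the 4 libraries of a mark (points, log axis, the authors' signal), with the median of the 330 (black line) and of all 17711 genes (dotted line). H3K27me3 has its widest spread and its highest median, 16.6, in wild-type EBs.

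With EBs compared between genotypes, a contrast that uses no value of the rule, H3K27me3 was lower in the knockout at most of these genes. It was lower by 2-fold or more at 176 of 330 and higher by 2-fold or more at 14, where 9.44% and 9.30% of all genes with values were lower and higher. The median log2 ratio was -1.10, and 266 of 330 ratios were below 0, while the median over all genes was 0.108. With 1 library per group there is no test of these ratios, and 2-fold is only a size. Within knockout cells, again without any value of the rule and without the wild-type EB library, H3K27me3 was 2-fold or more higher in EBs than in ES cells at 138 genes and 2-fold lower at 0, against 12.3% and 4.22% of all genes. The median log2 ratio there was 0.86. With each library divided by its median, 92 genes were higher and 2 lower in that contrast. Other short genes shared part of this rise. The undivided values were 2-fold or more higher at 41.8% of the 330 and at 25% of all genes under 10 kb. They were so at 33.4% of short H3K4me3-only genes, 21.1% of short H3K27me3-only genes and 4.93% of longer genes past both thresholds.

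The contrasts with wild-type ES cells are described only. H3K27me3 was 2-fold or more higher in wild-type EBs than ES cells at 194 genes and lower at 26, where all genes gave 15.9% and 12.1%. In knockout against wild-type ES cells it was 2-fold lower at 28 genes and higher at 0, where all genes gave 6.22% and 4.37%.

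Other groups made by the same length limit and thresholds gave other shares in the contrast between EBs. H3K27me3 was 2-fold lower in knockout EBs at 154 of 487 short genes that passed the H3K27me3 threshold alone (31.6%, median log2 ratio -0.25), against 53.3% of the short bivalent genes. Among 4319 genes of 10 kb or more that passed both thresholds, 233 (5.39%) were 2-fold lower and 360 (8.34%) higher, with a median log2 ratio of 0.18. The deposited values rise with the length of the locus (Spearman's rho 0.666 across all genes in wild-type ES cells), and long and short genes are not matched in mark. Inside the 330 genes the rank relation with length was weaker, 0.315 in wild-type ES cells, -0.0695 in wild-type EBs and 0.175 in knockout EBs. None of these differences between groups of genes was tested.

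**Figure D3:**
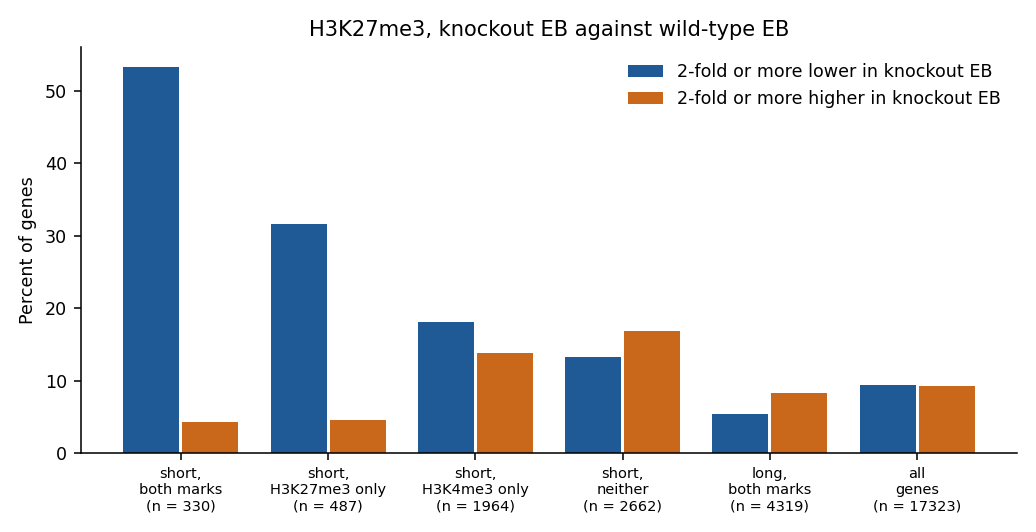
Percent of genes with H3K27me3 2-fold or more lower (blue) or higher (orange) in knockout than in wild-type EBs, 1 library each, by group of genes (number with values below each). Among short genes with both marks 53.3% are lower and 4.24% higher; among all genes 9.44% and 9.30%.

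The largest H3K27me3 deficits in knockout EBs were those of Zic5 and Egr4. At Zic5, a zinc finger factor of neural development (chr14:122456795-122465677 in mm10), H3K27me3 was 3.63 and 2.11 in wild-type and knockout ES cells and 18.8 and 2.43 in wild-type and knockout EBs, a log2 ratio of -2.95 between the EBs. H3K4me3 at Zic5 was 19.1, 21.6, 39.5 and 31 in the same order. At Egr4 H3K27me3 was 3.02, 1.89, 37 and 6.27, and H3K4me3 7.07, 8.75, 15.4 and 11.2. In both genes the wild-type EB library alone was high in H3K27me3. Hic1, a transcriptional repressor and growth brake, had 7.18, 3.58, 72.8 and 13.9, Vgf, a neuropeptide precursor, had 3.65, 2.21, 31.4 and 5.92, and Sox1, a neural progenitor factor, had 4.29, 3.6, 34.2 and 6.86. Zic5, Egr4, Hic1 and Vgf were named for their large ratios between the EBs, and Sox1 is a preset anchor. High values in wild-type EBs beside low ones in knockout EBs therefore follow from the choice of the former genes.

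In a smaller set the order was the other way round. Plekho1, a pleckstrin homology protein (chr3:95988429-95996001), had H3K27me3 of 10.4 and 9.02 in wild-type and knockout ES cells, 3.12 in wild-type EBs and 8.88 in knockout EBs. Serpinh1, the collagen chaperone HSP47 (chr7:99345376-99353239), had 4.59, 2.96, 2.56 and 6.51, and Sema4c, a semaphorin, had 7.74, 6.83, 1.84 and 4.8. Of the 14 genes with 2-fold higher H3K27me3 in knockout EBs, all had been called higher in RNA in wild-type EBs than ES cells, and 13 were called lower in RNA in knockout EBs. The highest H3K27me3 value in wild-type ES cells belonged to Krt85, a hair keratin with no FPKM above 0.0227 in any library. Krt85 read 60.2, 72.1, 97.4 and 95.1 in wild-type ES, knockout ES, wild-type EB and knockout EB, so it differed little between genotypes.

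H3K4me3 differed less than H3K27me3 between the EBs. Its median over the 330 genes was 7.98 in wild-type ES cells, 9.15 in knockout ES cells, 16.1 in wild-type EBs and 12.4 in knockout EBs. In knockout against wild-type EBs it was 2-fold lower at 34 genes and 2-fold higher at 22, where 7.35% and 12.1% of all genes were, and the median log2 ratio was -0.33. In knockout EBs against knockout ES cells it was 2-fold higher at 19 genes and lower at 0, against 3.81% and 6.78% of all genes. Against wild-type ES cells, as description, 156 genes were 2-fold higher and 17 lower in wild-type EBs (12.8% and 15.4% of all genes), and 0 higher and 1 lower in knockout ES cells (4.07% and 3.49%). Both thresholds of the rule were met by 223 of the 330 genes in knockout ES cells, 274 in wild-type EBs and 309 in knockout EBs. The same count was not made over all genes.

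Most of the 330 genes were weakly transcribed in ES cells. Both wild-type ES libraries were under 1 FPKM for 178 genes and at 5 FPKM or more for 42. The median level was 0.672 FPKM in ES cells of wild type, 1.02 in knockout ES cells, 1.65 in wild-type EBs and 1.26 in knockout EBs. A filter of 1 FPKM in at least 2 libraries passed 228 genes, which were tested with limma on log2(FPKM + 1) over all 15424 genes that passed, and the other 102 were not tested. Some passed only through wild-type EBs (195 pass without those libraries), so counts are given over all 330. Tbx2, Gata5 and Fzd1, described below, are among them. At such genes the filter itself favours a lower value in knockout than in wild-type EBs.

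On differentiation of wild-type cells 137 of the 330 genes were called higher in RNA and 36 lower at an adjusted p under 0.05, where 36.2% and 24.8% of all genes tested were. Over genes tested or not, this is 41.5% and 10.9% of the 330 against 27.1% and 16.3% of all 17711. Of the 4319 longer genes past both thresholds, 46.1% were called higher and 10.4% lower. In the knockout 51 of the 330 were called higher in EBs than ES cells and 33 lower, where 17.1% and 12.0% of all genes tested were. Over genes tested or not, these are 15.5% and 10% of the 330 and 12.9% and 8.02% of all 17711. The longer genes past both thresholds gave 21.1% and 6.27% there. Quantile normalization of the libraries, which moved the median difference of all genes from 0.12 to -0.11 in wild-type cells, changed the split of the 330 from 137 and 36 to 117 and 50. Without wild-type EB replicate 1 the lower calls went from 36 to 23, and those in the knockout went from 33 to between 12 and 21 when 1 of the 4 libraries compared was left out. The higher calls in the knockout went from 51 to 33 without knockout ES replicate 1.

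Between the EBs, 102 of the 330 genes were called lower in the knockout and 28 higher, where 25.9% and 20.0% of all genes tested were. Over genes tested or not, this is 30.9% and 8.48% of the 330 against 19.1% and 13.6% of all 17711. Of the 4319 longer genes past both thresholds, 32.8% were called lower and 9.7% higher, shares near those of the 330. The higher calls among the 330 rest on few libraries: 14 genes were called higher without wild-type EB replicate 1 and 18 without knockout EB replicate 1, of which 14 and 16 were among the 28. In ES cells 6 of the 330 genes were called higher in the knockout and 2 lower, against 0.421% and 0.0778% of all genes tested. As shares of genes tested or not, these are 1.82% and 0.606% of the 330 against 0.299% and 0.0339% of all 17711.

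H3K27me3 in wild-type EBs differed with what the RNA of the genes did there. The 137 genes called higher in wild-type EBs than ES cells had a median H3K27me3 of 5.95 in wild-type ES cells, 7.36 in wild-type EBs and 6.51 in knockout EBs. The 36 called lower had 4.70, 26.3 and 8.82, the 55 not called had 5.39, 20.6 and 7.28, and the 102 not tested had 5.82, 21.6 and 8.07. H3K27me3 in wild-type EBs was therefore lowest at the genes with higher RNA in EBs, while in knockout EBs the 4 classes lay between 6.51 and 8.82.

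**Figure D4:**
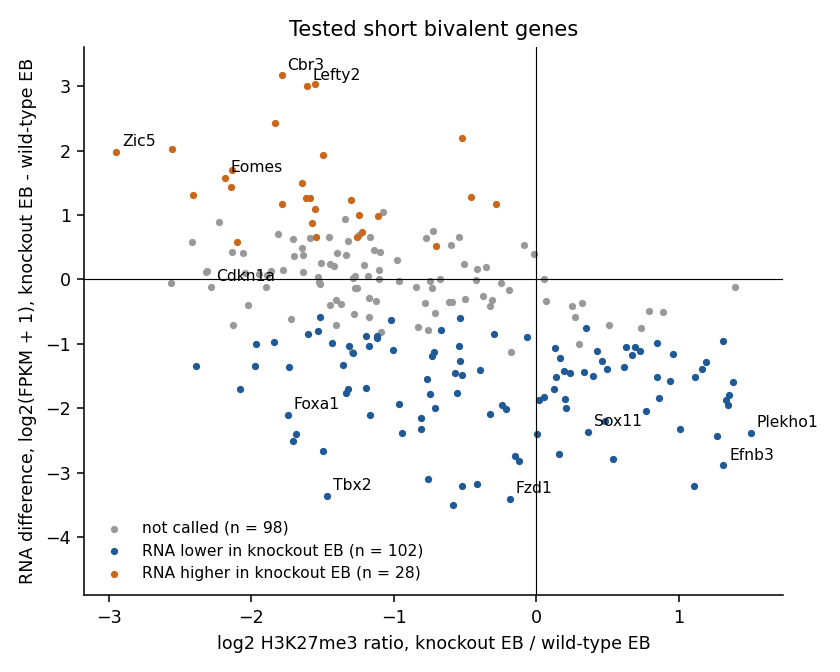
For the 228 tested genes, log2 ratio of H3K27me3 in knockout to wild-type EBs (x axis, 1 library each) against the RNA difference on the log2(FPKM + 1) scale (y axis, means of 2 libraries). All 28 genes called higher in RNA lie at negative H3K27me3 ratios, and the 102 called lower lie on both sides of 0.

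Across the tested genes the H3K27me3 ratio and the RNA difference between EBs went in opposite directions, with a Spearman rho of -0.522 over 228 genes and -0.46 over all 330. The H3K4me3 ratio and the RNA difference went in the same direction, with 0.576 and 0.526. The values for all genes passing the filter were -0.327 (11471 genes) and 0.535 (11513 genes). Points are genes that share the same libraries, and no p is given. Of the 28 genes called higher in knockout EBs, 24 had 2-fold lower H3K27me3 there and 0 higher, where 176 and 14 of the 330 did. Of the 102 called lower, 28 had 2-fold lower and 13 had 2-fold higher H3K27me3, and their median H3K27me3 was 7.26 in wild-type and 6.56 in knockout EBs. Their median H3K4me3 was 23.3 and 13.5.

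T-box and GATA factors specify mesoderm and endoderm, and 3 of them were in the set. Tbx2 (chr11:85832551-85841948), a T-box repressor of heart and limb development, read 0.0271 and 0.163 FPKM in ES cells of wild type, 0.0717 and 0.161 in knockout ES cells, 19.6 and 27.7 in wild-type EBs, and 0.447 and 2.89 in knockout EBs. Only the wild-type EB libraries were high, and Tbx2 passed the FPKM filter only through them. The RNA difference between EBs was -3.36 on the log2(FPKM + 1) scale (SE 0.43, adjusted p = 0.00145), and H3K27me3 was 19.6, 13.1, 75 and 27.1 in wild-type ES, knockout ES, wild-type EB and knockout EB. Tbx2 thus had its highest RNA and its highest H3K27me3 in the same bulk sample. Gata5, a zinc finger factor of heart and gut endoderm, read 14.8 and 13 FPKM in wild-type EBs, 0.142 and 1.26 in knockout EBs, and at most 0.032 in ES cells. Gata5 too passed the FPKM filter only through the wild-type EB libraries. Its difference between EBs was -3.21 (SE 0.31, adjusted p = 0.000575), with H3K27me3 of 20 and 13.9 and H3K4me3 of 19.9 and 7.92.

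Eomes, the T-box factor of mesendoderm (chr9:118478212-118486132), went the other way. It read 1.95 and 0.616 FPKM in ES cells of wild type, 1.66 and 0.753 in knockout ES cells, 2.80 and 6.24 in wild-type EBs, and 11.1 and 19.2 in knockout EBs. Both knockout EB libraries lay above both wild-type ones, and the difference was 1.58 (SE 0.45, adjusted p = 0.0254). The call was lost without wild-type EB replicate 1 (adjusted p = 0.137) and without knockout EB replicate 2 (adjusted p = 0.121), with a pseudocount of 0.1 and without the filter. H3K27me3 at Eomes was 29.2 in wild-type and 6.43 in knockout EBs, while H3K4me3 was 22.2 and 23.9.

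Among 21 homeobox factors, which pattern the body axes and organs, H3K27me3 was 2-fold lower in knockout EBs at 16 and higher at 0, and RNA was called lower for 6 and higher for 0, with 5 not tested. Of all 132 homeobox genes with values, bivalent or not, 98 were 2-fold lower in H3K27me3 and 1 higher. RNA was called lower for 41 of the 132 (31.1%) and higher for 5, against 28.6% lower among the 21. Otx1, a forebrain factor, had H3K27me3 of 62.8 in wild-type and 18.8 in knockout EBs and read 1.64 and 1.78 FPKM against 0.0426 and 0.0618, a difference of -1.36 (SE 0.16, adjusted p = 0.00114). Irx4, a factor of the heart ventricle, read 3.98 and 4.99 FPKM in wild-type against 0.635 and 0.56 in knockout EBs, a difference of -1.77 (SE 0.18, adjusted p = 0.000732). Otx1 and Irx4 are low, and in the EBs only their wild-type libraries reach the filter level of 1 FPKM. At genes that pass only through those libraries the filter itself favours a lower knockout value. A pseudocount of 0.1 makes the differences -3.57 and -2.71. Cdx2, of trophoblast and the posterior body axis, had 41.2 and 18.3 in H3K27me3 and 8.26 and 8.5 FPKM in wild-type against 2.24 and 5.45 in knockout EBs. Its call (-1.04, SE 0.32, adjusted p = 0.0341) was lost without either wild-type ES library, either wild-type EB library or knockout EB replicate 1, with adjusted p from 0.0507 to 0.128.

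Other homeobox factors rose in EBs of both genotypes. Lhx1, of the node and the kidney, was listed at 0 in both wild-type ES libraries and read 0.177 and 0.0837 FPKM in knockout ES cells, 2.75 and 4.76 in wild-type EBs, and 4.96 and 12.4 in knockout EBs. EBs were above ES cells in wild type (2.22, SE 0.39, adjusted p = 0.00206) and knockout (2.98, SE 0.39, adjusted p = 0.00296), and H3K27me3 was also higher in EBs, 45.3 and 17.9 against 11.7 and 7.55. With a pseudocount of 0.1 the wild-type difference is 5.22. Msx2, a target of BMP signals, read 0.477 and 0.573 FPKM in ES cells of wild type, 5.67 and 7.12 in wild-type EBs and 7.43 and 7.08 in knockout EBs, with adjusted p = 0.476 between the EBs. It was called higher in EBs than ES cells in wild type (2.27, SE 0.18, adjusted p = 7.03e-05) and knockout (2.06, SE 0.18, adjusted p = 0.00109). En1, a midbrain factor that was not tested, had H3K4me3 of 25.4 in wild-type and 8.83 in knockout EBs.

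**Figure D5:**
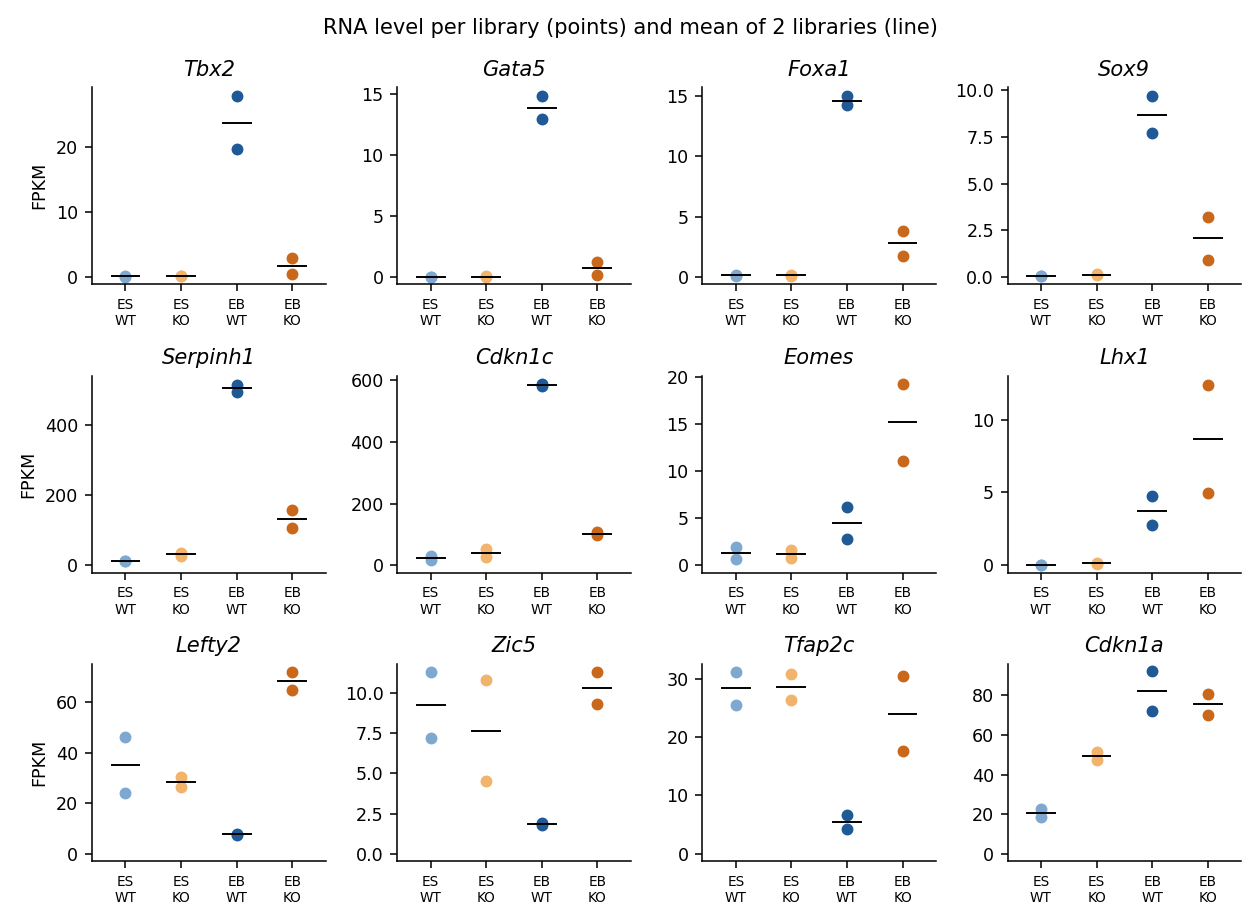
FPKM of 12 of the genes in each library (points) with the mean of 2 libraries (line) in the 4 groups. The y axes include 0 and differ between panels. In the top row and in Serpinh1 and Cdkn1c both wild-type EB libraries lie above all others, and in Lefty2, Zic5 and Tfap2c they lie below all others.

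Of 6 Sox factors, 4 were called lower in knockout EBs and 0 higher, and H3K27me3 was 2-fold lower at 3. Over all 19 Sox genes, bivalent or not, RNA was called lower for 11 and higher for 2, and H3K27me3 was 2-fold lower at 8. Sox9, of cartilage and gonad, read 7.72 and 9.69 FPKM in wild-type against 0.927 and 3.19 in knockout EBs (difference -1.76, SE 0.34, adjusted p = 0.00621), with H3K27me3 of 10.6 and 7.18 and H3K4me3 of 36.3 and 12.5. Sox11, of neural progenitors, read 39.7 and 54 FPKM in wild-type against 5.17 and 12.6 in knockout EBs (difference -2.37, SE 0.37, adjusted p = 0.00281), with H3K27me3 at 3.52 and 4.54. Sox17, the endoderm factor, read 26.6 and 31.1 FPKM in wild-type against 11.2 and 26.1 in knockout EBs (adjusted p = 0.229), and its H3K27me3 was 30.6 and 6.99. The Sox genes called lower in knockout EBs were thus not those with the large H3K27me3 difference, apart from Sox21, and Sox1 was not tested. Foxa1, a pioneer factor of endoderm, read 15 and 14.2 FPKM in wild-type against 1.72 and 3.83 in knockout EBs (difference -2.10, SE 0.27, adjusted p = 0.00147), and both marks were lower in knockout EBs, H3K27me3 at 28.5 and 8.51 and H3K4me3 at 20 and 9.66.

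Among 13 zinc finger and other fate factors H3K27me3 was 2-fold lower in knockout EBs at 10, and RNA was called higher for Tfap2c, Zic2 and Zic5 and lower for Snai1. Over all 103 factors of that list with values, H3K27me3 was 2-fold lower at 55, and RNA was called higher for 15 and lower for 31. Zic5 read 7.18 and 11.3 FPKM in ES cells of wild type, 4.50 and 10.8 in knockout ES cells, 1.91 and 1.80 in wild-type EBs, and 11.3 and 9.29 in knockout EBs. Wild-type EBs were the only low group, and the difference between EBs was 1.98 (SE 0.37, adjusted p = 0.00504). Tfap2c, the AP-2 gamma factor of trophoblast and germ cells, read 25.6 and 31.2 FPKM in ES cells of wild type, 4.25 and 6.67 in wild-type EBs, and 30.5 and 17.6 in knockout EBs (difference 1.93, SE 0.28, adjusted p = 0.00225). H3K27me3 at Tfap2c was 3.65 and 26.4 in wild-type ES cells and EBs and 9.34 in knockout EBs.

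Of 6 Wnt pathway genes, Fzd1, Fzd4 and Sfrp2 were called lower in RNA in knockout EBs. The other 3, Kremen2, Sost and Wnt10b, had 2-fold lower H3K27me3 there and were too low in RNA to be tested. Over all 55 genes of that list with values, RNA was called lower for 23 and higher for 7. H3K27me3 was 2-fold lower at 14 of the 55 and higher at 4. Fzd1, a Wnt receptor (chr5:4753839-4758035), read 27.1 and 36.9 FPKM in wild-type against 0.899 and 4.01 in knockout EBs, and at most 0.301 in ES cells (difference -3.40 between EBs, SE 0.42, adjusted p = 0.0013). Fzd1 passed the FPKM filter only through the wild-type EB libraries. Its H3K27me3 was nearly level at 4.51, 3.31, 5.80 and 5.10 over the 4 groups, while H3K4me3 was 6.99, 7.20, 38.7 and 14.6. Fgf8, a ligand of gastrulation and limb growth and 1 of 4 FGF genes, rose in EBs of wild type (3.51, SE 0.29, adjusted p = 8.94e-05) and knockout (3.13, SE 0.29, adjusted p = 0.00134), reading 12.2 and 12 against 6.65 and 13.3 FPKM between the EBs. With a pseudocount of 0.1 the wild-type value is 5.69. H3K27me3 at Fgf8 was 42.2 in wild-type and 15.9 in knockout EBs.

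In the TGF-beta family, 8 genes, RNA was called higher in knockout EBs for Gdf1, Lefty1 and Lefty2 and lower for 0, and H3K27me3 was 2-fold lower at 5. The whole list of 53 genes went otherwise, with RNA called higher for 8 and lower for 21, and H3K27me3 2-fold lower at 12. Lefty2, an antagonist of Nodal (chr1:180893108-180899103), read 46.3 and 23.8 FPKM in ES cells of wild type, 26.5 and 30.2 in knockout ES cells, 7.77 and 7.56 in wild-type EBs, and 64.7 and 71.8 in knockout EBs. The EB groups did not overlap (difference 3.00, SE 0.27, adjusted p = 0.000504). Its H3K27me3 was 9.36 in wild-type and 3.07 in knockout EBs and its H3K4me3 4.46 and 19.1, the marks thus differing in opposite directions. Lefty1, a close paralog whose reads may not be fully separable, read 2.10 and 5.50 against 20.2 and 26.7 FPKM (difference 2.43, SE 0.65, adjusted p = 0.0201), a call lost without wild-type EB replicate 1 (adjusted p = 0.11) and without knockout EB replicate 1 (0.0681) or 2 (0.0841). Inhbb, the beta-B subunit of activins and inhibins, read 27.6 and 29.6 FPKM in ES cells of wild type, 11.2 and 8.4 in knockout ES cells, 0.159 and 0.347 in wild-type EBs, and 0.362 and 0.247 in knockout EBs. H3K27me3 at Inhbb was 3.65, 5.50, 56.3 and 15.2, and its RNA was at most 0.362 FPKM in the EBs of both genotypes while the mark was lower in the knockout.

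Of 6 Hedgehog and Notch genes, 4 had 2-fold lower H3K27me3 in knockout EBs and 1, Ihh, was called lower in RNA. Over the whole list of 24 genes with values, H3K27me3 was 2-fold lower at 8 and RNA was called lower for 11. Ihh, a Hedgehog ligand of gut and cartilage, read 4.20 and 2.61 FPKM in wild-type against 0.825 and 1.65 in knockout EBs, a call (-0.98, SE 0.25, adjusted p = 0.0175) lost without wild-type EB replicate 1 (0.124) or knockout EB replicate 1 (0.0892). Dll1, a Notch ligand, read 1.07 and 1.15 against 0.793 and 1.05 FPKM (adjusted p = 0.739). Among 13 axon guidance and neuronal genes, 9 had 2-fold lower and 2 had 2-fold higher H3K27me3 in knockout EBs, and RNA was called lower for 4 and higher for 2. Over all 111 genes of that list with values, 46 had 2-fold lower H3K27me3, and RNA was called lower for 33 and higher for 12. Efnb3, an ephrin ligand and 1 of the 2 with higher H3K27me3 (1.48 and 3.68), read 31.5 and 31.9 FPKM in wild-type against 2.24 and 5.05 in knockout EBs (difference -2.88, SE 0.29, adjusted p = 0.000676). Nes, the intermediate filament nestin, read 20 and 26.4 against 3.46 and 7.75 FPKM (difference -1.94, SE 0.31, adjusted p = 0.00312).

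All 5 growth brakes among the 330 had 2-fold lower H3K27me3 in knockout than wild-type EBs, with different RNA. Of all 29 genes of that list with values, bivalent or not, 14 were 2-fold lower, as were 53.3% of the 330. Cdkn1c, the imprinted inhibitor p57 (chr7:143458339-143461050), read 17.8 and 31.1 FPKM in ES cells of wild type, 27.9 and 51.8 in knockout ES cells, 587 and 581 in wild-type EBs, and 107 and 98 in knockout EBs. Its difference between EBs was -2.50 (SE 0.32, adjusted p = 0.00144) and its H3K27me3 was 23.6 in wild-type and 7.23 in knockout EBs. Cdkn1a, the inhibitor p21, read 22.6 and 18.6 FPKM in ES cells of wild type, 51.6 and 47.4 in knockout ES cells, 72 and 92.2 in wild-type EBs, and 70 and 81 in knockout EBs. The ES groups did not overlap (1.23, SE 0.16, adjusted p = 0.0351), and the EB groups did (adjusted p = 0.597). The ES call was lost when any 1 of the 8 libraries was left out, with adjusted p from 0.0634 to 0.228. Cdkn2b, the inhibitor p15, read 5.54 and 9.63 in wild-type and 9.80 and 6.80 FPKM in knockout EBs (adjusted p = 0.742), with H3K27me3 of 16.6 and 4.86.

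Genes of secreted and surface proteins and others were also lower in RNA in knockout EBs. Rbp4, the retinol carrier, read 153 and 108 FPKM in wild-type against 9.78 and 20.4 in knockout EBs (difference -3.09, SE 0.35, adjusted p = 0.000981). Cd248, the stromal surface protein endosialin, read 26 and 35.9 against 1.27 and 4.39 FPKM (difference -3.18, SE 0.39, adjusted p = 0.00121). Serpinh1 read 494 and 514 against 107 and 158 FPKM (difference -1.95, SE 0.20, adjusted p = 0.000715), and Plekho1 80 and 82.4 against 9.64 and 22.5 (difference -2.38, SE 0.33, adjusted p = 0.00193). Summed FPKM of 12 fibroblast markers was 708 and 922.1 in wild-type and 43.39 and 81.75 in knockout EBs, and its part in these genes was not tested.

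Other genes were higher in knockout EBs. Cbr3, a carbonyl reductase, read 17.4 and 12.9 FPKM in ES cells of wild type, 0.777 and 2.66 in wild-type EBs and 22.7 and 21.1 in knockout EBs (difference 3.17, SE 0.32, adjusted p = 0.000706), with H3K27me3 of 3.15, 18.2 and 5.28 in those groups. Tmem30b, a subunit of lipid flippases, read 1.53 and 2.30 against 12.2 and 9.54 FPKM between the EBs (difference 2.03, SE 0.23, adjusted p = 0.000981), with H3K27me3 of 20.6 and 3.50. Thy1, a surface glycoprotein of thymocytes and neurons that is also 1 of the 12 fibroblast markers, was higher at both stages. It was the only one of those markers called higher in knockout EBs, where 9 were called lower. It read 4.40 and 7.39 FPKM in the wild-type ES libraries and 47.7 and 41.3 in the knockout ones, and 1.10 and 2.2 in wild-type and 21.3 and 19.4 in knockout EBs. The EB difference was 3.04 (SE 0.27, adjusted p = 0.000476). The ES difference was 2.75 (SE 0.27, adjusted p = 0.0162), a call lost without either library of wild-type or of knockout ES cells (adjusted p from 0.0627 to 0.0827). H3K27me3 at Thy1 was lower in the knockout at both stages, 4.46 and 1.87 in ES cells and 16.4 and 5.58 in EBs.

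The other genes called in ES cells were Amn, H2-D1, H2-K1 and H2-Q4, higher, and Inhbb and Nkx6-3, lower; Nkx6-3 was chosen after its values were seen. H2-K1, H2-D1 and H2-Q4 encode class I histocompatibility heavy chains, near-identical genes between which reads may be split. H2-K1 read 7.52 and 9.17 FPKM in the wild-type ES libraries and 22.4 and 27.9 in the knockout ones (1.48, SE 0.21, adjusted p = 0.0424), and its H3K27me3 was 6.24 and 3.84. Nkx6-3, a homeobox factor of the stomach, read 3.24 and 3.37 FPKM in the wild-type ES libraries and 0.561 and 0.183 in the knockout ones (-1.66, SE 0.18, adjusted p = 0.0237). With 1 library left out, 0 to 2 of the 330 genes were called higher and 0 to 1 lower, and of these 6 higher calls all but that of Thy1 were lost with each library left out. For H2-K1 the adjusted p then ran from 0.0567 to 0.203, for Inhbb from 0.0634 to 0.26, and for Nkx6-3 it passed 0.05 without either wild-type EB or either knockout ES library (0.0772 to 0.0935), and without either wild-type ES library it did not pass the FPKM filter.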

How the data were processed

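RNA-seq (8 libraries) and ChIP-seq of H3K27me3 and H3K4me3 (8 libraries) are used; 4 input libraries are not analysed here. RNA values are FPKM per gene as deposited by the authors. ChIP values are a signal per gene as deposited by the authors, who call it RPKM on promoters, in which nearly all values are whole multiples of 1 step per library; the promoter window and any division by length are not given in the sources used here. STAR 2.6.0a, Bowtie2, HTSeq, Cufflinks 2.2.1, DESeq2 and the build mm10 are named, without roles, in the submitters' processing notes. Read depth was not used for RNA, whose precision is taken from the replicates.

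Genes were joined by symbol, and genes with more than 1 locus were left out. RNA was tested with limma 3.58.1 (R 4.3.3) on log2(FPKM + 1) with a mean trend, over all 8 libraries, for 15424 genes with FPKM of at least 1 in 2 libraries. There were 4 residual degrees of freedom (7.05 after moderation), and p-values were adjusted over all genes by Benjamini-Hochberg at 0.05. The script was tested on simulated data. Fold changes on this scale understate the change of low genes. Marks, with 1 library per group, were compared as ratios with a size of 2-fold and no test. Python 3.11.15, pandas 2.3.3 and SciPy 1.17.1 were used.

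The genes, lists and comparisons were chosen with earlier results of these data known. Named genes are preset anchors, the largest called RNA differences without overlap of libraries, the largest ratios of each mark between EBs, up to 3 genes per list by adjusted p, those beside each threshold and those highest in each mark. Alternatives were another pseudocount, no filter, quantile normalization, a replicate block, each library left out, stricter thresholds, shorter loci, another fold and other scalings of the ChIP libraries.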

Additional observations from a re-analysis of the deposited data

Results flagged for a closer look

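The effect of the knockout on RNA differed between EBs and ES cells, by the interaction term of the limma fit. Among all genes tested, 18.6% were called below 0 (lower in EBs) and 12.7% above 0, at an adjusted p under 0.05. The calls among the 330 were 101 below 0 and 10 above. As shares of genes tested or not, these are 30.6% and 3.03% of the 330 against 14.3% and 8.68% of all 17711. Longer genes past both thresholds gave 27% and 5.3%. The 10 of the 330 called above 0 were Aqp3, Ascl2, Cabp7, Cbr3, Inhbb, Lefty2, Nkx6-3, Tfap2c, Tmem30b and Zic5. With 1 library left out the lower count ran from 51 to 97 and the higher count from 4 to 14, the lowest of the former without wild-type EB replicate 2.

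Lefty2 had a difference of knockout effects of 3.22 on the log2(FPKM + 1) scale (SE 0.38), and Inhbb of 1.53 (SE 0.27). In Inhbb the knockout was lower in ES cells, while all EB libraries were at most 0.362 FPKM. Nkx6-3 had 1.65 (SE 0.26), with at most 0.025 FPKM in EBs, and 2.82 with a pseudocount of 0.1. Cdkn1c had -3.17 (SE 0.45) and Cdkn1a -1.34 (SE 0.22), the latter with a knockout effect called in ES cells and not in EBs. H2-Q4 had -1.44 (SE 0.30) and H2-K1 -1.11 (SE 0.29). The H2-K1 value was not past the threshold without wild-type ES replicate 1, wild-type EB replicate 1, knockout ES replicate 2 or either knockout EB library (adjusted p from 0.0566 to 0.0842, limma).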

How the results depend on the processing

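The share of the 330 genes with 2-fold lower H3K27me3 in knockout than wild-type EBs was 53.3% and ran from 50.6% to 66.7% over the alternatives. Same-numbered libraries were not taken as paired, since correlations of their deviations ran from 0.0704 to 0.311; with a replicate block the ES calls of the knockout were 0.606% higher and 0.303% lower (1.82% and 0.606% without), and no other share of calls moved by over 1.5 times. With 1 library left out, RNA calls between EBs were 4.24% to 8.79% higher and 21.5% to 31.5% lower, those between ES cells 0% to 0.606% and 0% to 0.303%. For wild-type EBs against ES cells they were 33.3% to 41.5% and 6.97% to 10.9%, for knockout 10% to 15.8% and 3.64% to 8.79%, and for the interaction 1.21% to 4.24% and 15.5% to 29.4%. Quantile normalization moved the split of interaction calls from 10 higher and 101 lower to 15 and 84, that between EBs from 28 and 102 to 37 and 98, and that of knockout EBs against ES cells from 51 and 33 to 47 and 42.

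The other values that moved, as percent of the genes, follow by setting. Without the FPKM filter RNA calls were 4.85% higher between EBs, 0% higher and 0.303% lower between ES cells, 5.76% lower in knockout EBs against ES cells and 1.21% higher for the interaction. With quantile normalization they were 0.606% higher and 0.303% lower between ES cells and 4.55% higher for the interaction, and with a pseudocount of 0.1 0% lower between ES cells. For the 40 genes past thresholds of 6 and 10, RNA calls between ES cells were 0% higher and 2.5% lower, those of knockout EBs against ES cells 7.5% higher and 17.5% lower, and the interaction 47.5% lower. In these 40 H3K27me3 was 7.5% higher between EBs, 20% lower between ES cells and 12.5% lower in wild-type EBs against ES cells. H3K4me3 was 0% higher and 5% lower between EBs and 0% in the other changed shares. For the 266 genes chosen on the knockout ES libraries instead, an alternative added after seeing the data, RNA calls were 1.13% higher between ES cells, H3K27me3 was 0.376% higher and 3.38% lower between ES cells, and H3K4me3 3.38% lower in wild-type EBs against ES cells. For the 96 genes under 5 kb H3K27me3 was 1.04% higher between EBs, and RNA calls and H3K4me3 were 0% lower between ES cells. With 1 added to ChIP values H3K27me3 was 1.21% higher between EBs, 2.12% lower between ES cells, 4.85% lower in wild-type and 26.7% higher in knockout EBs against ES cells, where H3K4me3 was 3.64% higher. With 1.5-fold in place of 2-fold H3K27me3 was 9.09% higher between EBs, 0.303% higher and 42.4% lower between ES cells, and 67.3% higher and 1.21% lower in knockout EBs against ES cells. H3K4me3 was then 13.6% higher and 31.8% lower between EBs, 3.94% and 0.909% between ES cells, 8.79% lower in wild-type and 27.9% higher in knockout EBs against ES cells. Division by the library sum gave 13.3% lower H3K27me3 between ES cells, and division by sum or median 0.606% lower in knockout EBs against ES cells. Division by the median gave H3K4me3 of 6.36% lower between EBs and 29.4% higher in wild-type EBs against ES cells. The cause of these shifts was not tested.

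Named genes that changed sign were not called with all libraries, and Fgf8 was called lower between EBs without knockout EB replicate 2 (adjusted p = 0.0289, limma). On the log2 scale between EBs, with 1 library left out, Cdkn1a ran from -0.289 to 0.0643, Cdkn2b from -0.212 to 0.49, Dll3 from -0.0149 to 0.615, Fgf3 from -0.00383 to 0.483, Fgf8 from -0.776 to 0.127, Inhbb from -0.0469 to 0.17 (-0.00888 with quantile normalization) and Ninj1 from -0.243 to 0.000962. Between wild-type EBs and ES cells Bhlhe40 ran from -0.58 to 0.05 and Dll1 from -0.637 to 0.0359.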

Other observations

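A group of the genes chosen after their values were seen belongs to antigen presentation. The 10 genes are B2m, Tap1, the class II gene H2-Ab1 and the class I genes or relatives H2-Bl, H2-D1, H2-K1, H2-Q10, H2-Q4, H2-Q6 and H2-Q7, whose reads may be split between copies. As a description, since the rule used the wild-type ES libraries, H3K27me3 in knockout ES cells was below wild type at 10 of 10 and H3K4me3 above at 10 of 10, where 306 and 244 of all 330 genes were. Median H3K27me3 of the 10 was 6.63 in wild-type and 3.98 in knockout ES cells, and median H3K4me3 was 6.95 and 11.3. Both knockout ES libraries were above both wild-type ones in RNA for 8 of 10, against 133 of 330. That count was not made over all genes. Of the 10, 3 were called higher, against 6 of 330. B2m, the light chain of class I molecules, read 7.45 and 3.75 FPKM in ES cells of wild type, 16.4 and 11.2 in knockout ES cells, 120.9 and 98.6 in wild-type EBs, and 66.1 and 62.3 in knockout EBs.

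Genes of Polycomb group proteins were themselves among the short bivalent genes, such as Bmi1 and Cbx2, which encode subunits of Polycomb repressive complex 1 and were also chosen after their values were seen. Cbx2 read 34.2 and 35.6 FPKM in wild-type against 10.3 and 15.6 in knockout EBs, with H3K27me3 of 1.32 and 2.96. Its log2(FPKM + 1) difference between EBs was -1.39 (SE 0.22, adjusted p = 0.00306, limma). Bmi1 read 8.98 and 10.4 against 2.64 and 5.54 FPKM (-1.12, SE 0.46, adjusted p = 0.0854), with H3K27me3 of 25.1 and 10.3.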
